A study of Zea mays with 54 samples.

Results

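A total of 176 features whose IDs begin with ENSRNA were followed in roots of maize (Zea mays), out of 1765 features with that prefix and 46430 features in all. They were chosen by their raw read counts, a count of 10 or more in at least 3 of 54 libraries, so the third-highest count of a feature decided its choice. That count was 10 in 12 members just inside the limit and 9 in 17 features just outside it. Of the 1765 ENSRNA features, 578 had a read in any library and 1187 were at 0 in every library. The study sequenced root RNA of 9 genotypes grown at low or high supply of phosphate (P), with 3 libraries in each of 18 groups, and compared low P with high P within each genotype. Each group is 1 genotype at 1 supply: EP1, F2, F160, F142, SF1 and SM1 at low P and at high P, which share the first of 2 count tables, and P024, F7 and P415 at low P and at high P, which share the second. The labels give neither P concentrations nor plant age, nor do they say if 1 plant or several made up a replicate. The p-values therefore speak of the spread among these libraries alone, and part of that spread may be technical.

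Structured non-coding RNAs include the ribosomal and transfer RNAs of the translation machinery, the small nuclear RNAs of the spliceosome, the small nucleolar RNAs that guide modification of other RNAs, and the RNA of the signal recognition particle, which directs proteins to membranes. Most of them carry no poly(A) tail, so the share of a library they take depends on how its RNA was selected. In plants short of phosphate, precursors of some microRNAs are known to accumulate, and in Arabidopsis their products act on transcripts that control phosphate uptake and transport. Neither the files nor the reference names a single ENSRNA ID, and 0 of the 1765 matched the RefSeq gene table. The features are therefore called by their IDs, with no RNA class, position or sequence. The label non-coding rests on the ID prefix alone. A separate set of 154 features, whose IDs mark them as maize microRNA genes, was at 0 in every library, and 0 of these met the same count rule.

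Library totals ran from 15585904 to 28733284 counts, so that 3 counts, taken as the limit that a count of 0 allows, correspond to 0.192 CPM (the usual depth-scaled read count) in the shallowest library and 0.104 CPM in the deepest; such limits cover counting error only. Totals were higher at low P without overlap in EP1, F2, F160, SF1 and P024. The lowest low P and highest high P totals were 20189443 and 19418789 in EP1, and 22107553 and 20031432 in F2. They were 21826368 and 19718901 in F160, 21578490 and 21183980 in SF1, and 17251814 and 17232705 in P024. In the other genotypes, F7 among them, the totals overlapped. Members together took between 0.00992% and 0.0876% of a library's counts. Their median level was 0.417 CPM, against 10.7 CPM for the 29882 features of any kind that passed the same count rule. The library labelled F7 low P 2 went against its label. Of 33 genes that reached 5 CPM in P024 but stayed under 0.2 CPM in the remaining F7 libraries, 33 exceeded 1 CPM in it, at a median of 0.913 of the P024 level, and of 108 genes of the reverse pattern 106 exceeded 1 CPM, at a median of 0.249 of the F7 level. The P024 libraries numbered 3 also stood apart from the other P024 libraries at both P supplies. Values without these libraries are given beside the results they move. Marker transcripts of green tissue, the plastid photosynthesis genes rbcL, psbA, psaA, psaB, psbC and psbD, summed to at most 0.0868 CPM in any library. In bulk root RNA, fewer cells of a type and less RNA per cell cannot be told apart.

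A single feature carried most of the summed counts. ENSRNA049469775, 193 bases long, averaged 223 CPM over the 54 libraries and held 64.6% of the summed CPM of all members. Its length-scaled level was 1155 FPKM (the count scaled by feature length and library total). The next 7 members held far less, from 1.98% of the sum for ENSRNA049478576 (6.84 CPM, 1811 bases) to 0.836% for ENSRNA049479574 (2.89 CPM, 1811 bases). Between these lay ENSRNA049478167 with 5.48 CPM, ENSRNA049479579 with 4.13 CPM, ENSRNA049478756 with 3.69 CPM, ENSRNA049477080 with 3.39 CPM and ENSRNA049479257 with 3.28 CPM. The share of the leading feature within a library ran from 16.4% in F7 high P 2 to 84.1% in EP1 high P 3. By length the members fell into 115 features under 400 bases, 29 of 400 to under 1800 bases and 32 of 1802 to 1812 bases, of which 20 measured exactly 1811 bases. These were 6.9% of the 1666 ENSRNA features under 400 bases, 51.8% of the 56 of middle length and 74.4% of the 43 of at least 1800 bases. The shares of the summed CPM were 80.7% (under 400 bases, the leading feature included), 7.21% and 12.1%. Features of 1 length may be near-identical copies between which the upstream counting divided reads, so single members of the longest class are uncertain and are described beside their class sum.

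**Figure D1:**
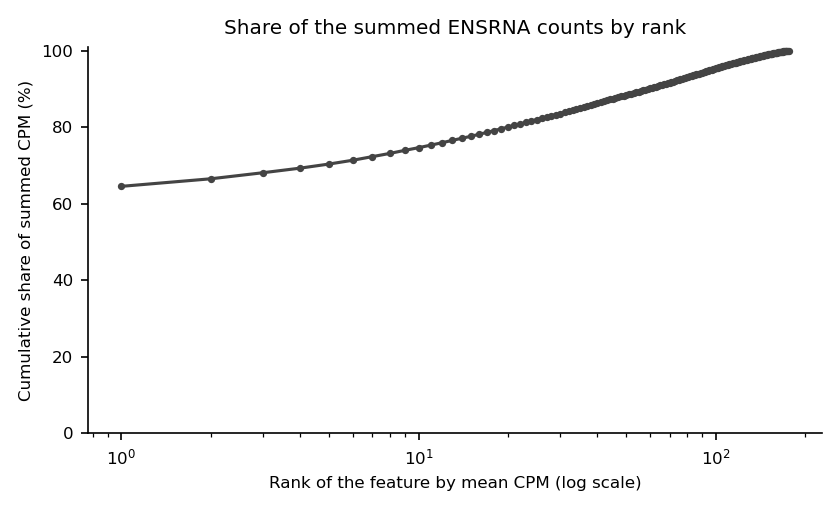
Cumulative share of the summed CPM of the 176 members (y axis, percent) against their rank by mean CPM over 54 libraries (x axis, log scale); each point is 1 feature. The curve starts at 64.6% with the leading feature.

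ENSRNA049469775 was lower at low P in 5 genotypes and higher in F7. In EP1, F2, F160 and SF1 the low P libraries also had higher totals without overlap, and the part of depth was not tested. In EP1, the leading feature had 448, 391 and 400 CPM at low P, against 726, 717 and 733 CPM at high P. In F142 it had 114, 131 and 133 CPM at low P, against 184, 241 and 237 CPM at high P. The libraries of the P supplies did not overlap in either genotype. In EP1 the summed mitochondrial ribosomal RNA (rrn18 and rrn26) was also lower at low P without overlap, with 217 to 270 CPM at low P against 293 to 350 CPM at high P, and its part in the result was not tested. In F142 it overlapped, with 258 to 472 CPM at low P and 286 to 313 CPM at high P. The log2 fold change was -0.81 ± 0.10 in EP1 (SE, edgeR adjusted p = 0.000208) and -0.71 ± 0.13 in F142 (edgeR adjusted p = 0.00205), and both calls held without each of the 6 libraries in turn. Each SE here was derived from the F statistic (the size of the change divided by its root) and is approximate throughout.

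In F2, ENSRNA049469775 had 97.5, 150 and 182 CPM at low P, against 331, 339 and 243 CPM at high P (log2 fold change -1.04 ± 0.25, edgeR adjusted p = 0.0217). In F160 it had 112, 121 and 163 CPM at low P, against 219, 245 and 280 CPM at high P (log2 fold change -0.81 ± 0.17, edgeR adjusted p = 0.0164). In SF1 the values were 164, 133 and 176 CPM at low P, against 207, 234 and 208 CPM at high P (log2 fold change -0.34 ± 0.11, edgeR adjusted p = 0.0242). No low P library reached the lowest high P library in these 3 genotypes. Each of the 3 calls ended on leaving out 1 of 3 libraries, with the direction kept. The edgeR adjusted p was 0.066 without F2 high P 1, 0.0596 without F2 high P 2 and 0.0611 without F2 low P 2. It was 0.0579 without F160 high P 2, 0.0511 without F160 high P 3 and 0.052 without F160 low P 1. In SF1 it was 0.0766 without high P 2, 0.0502 without low P 1 and 0.063 without low P 2.

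F7 showed the opposite change. ENSRNA049469775 had 60.9, 63.2 and 37.6 CPM at low P, against 21.5, 16.3 and 23.2 CPM at high P, with no overlap (log2 fold change 1.40 ± 0.24, edgeR adjusted p = 0.00732). Leaving out single F7 libraries, the doubted F7 low P 2 among them, gave log2 fold changes of 1.28 to 1.59 and edgeR adjusted p-values of at most 0.0401. In the other 3 genotypes the P supplies overlapped and no call was made. SM1 had 428, 490 and 519 CPM at low P, against 378, 471 and 401 CPM at high P (edgeR adjusted p = 0.175). P024 had 50.9, 50.5 and 78.9 CPM at low P, against 50.5, 46.1 and 166 CPM at high P, where the highest value belongs to a library that stood apart. P415 had 68.9, 137 and 85.2 CPM at low P, against 85.9, 173 and 76.2 CPM at high P. Its highest values lay in the libraries numbered 2, and the low P value was the lower one in 2 of 3 same-numbered pairs.

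**Figure D2:**
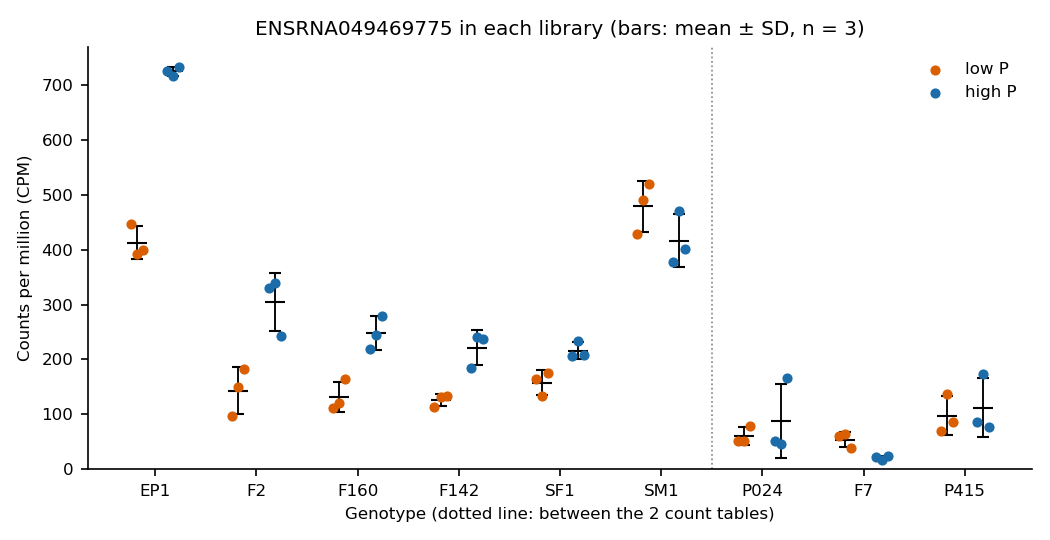
Level of ENSRNA049469775 (y axis, CPM) in each of the 54 libraries, by genotype, with low P (orange) left of high P (blue); black marks are the mean ± SD of 3 libraries. The low P libraries lie below the high P libraries in EP1, F2, F160, F142 and SF1, and above them in F7.

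Averaged with equal weight over genotypes, the leading feature was lower at low P (log2 fold change -0.28 ± 0.10, edgeR adjusted p = 0.0185), and its response differed between genotypes (edgeR adjusted p of the genotype by P interaction = 0.000293). Neither call was made without the libraries numbered 1, where the edgeR adjusted p was 0.125 for the average and 0.0816 for the interaction. The average log2 fold change stayed at -0.28 there. Over all features the calls also fell there, from 11479 to 7703 for the average and from 12521 to 4270 for the interaction. Fitted in the second count table alone, the average was 0.26 (adjusted p = 0.686). The lower sum at low P was known when the members were chosen, and this feature held 92.5% of that difference. Its p-values for low P, here and within genotypes, are therefore no independent support for a fall. In order of the level at high P, EP1 stood first with 725 ± 8.41 CPM (SD, n = 3), then SM1 with 417 ± 48.2 CPM, F2 with 304 ± 53.0 CPM, F160 with 248 ± 30.4 CPM, F142 with 221 ± 32.0 CPM and SF1 with 216 ± 15.2 CPM. P415 (112 ± 53.5 CPM), P024 (87.6 ± 68.1 CPM) and F7 (20.4 ± 3.6 CPM) followed. Without the libraries numbered 3, P024 averaged 48.3 CPM at high P, in the same place of the order. Neighbours in this order overlapped from F2 to SF1 and between P415 and P024. EP1 and SM1, SM1 and F2, SF1 and P415, and P024 and F7 did not overlap, although SF1 and P415 lie in different count tables and genotype and table cannot be told apart between them.

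The sum over all 176 members was lower at low P mostly through this feature. Averaged over genotypes the sum was 304 CPM at low P and 387 CPM at high P, a difference of -82.7 CPM, of which -76.5 CPM or 92.5% lay in ENSRNA049469775. The largest differences in the sum were -324 CPM in EP1 and -216 CPM in F2. Of each genotype's own difference, the feature held 96.4% in EP1, 90.6% in F142, 84.8% in F160, 74.4% in F2 and 51.9% in P415. Its change exceeded that of the sum in SF1, P024 and F7, and was 70.4% of a rise in SM1. No test was made of the sum, because its direction was known when the members were chosen. The sum was lower at low P without overlap of the libraries in 4 genotypes. It was 549 ± 25.0 CPM at low P and 873 ± 2.11 CPM at high P in EP1, and 243 ± 44.5 CPM at low P and 460 ± 38.6 CPM at high P in F2 (SD, n = 3 each). F160 had 262 ± 29.3 CPM at low P and 398 ± 38.6 CPM at high P, and F142 had 279 ± 16.6 CPM at low P and 384 ± 19.0 CPM at high P. In F7 the sum was higher at low P, with 132 ± 18.6 CPM against 106 ± 6.0 CPM at high P, and the libraries did not overlap. Without F7 low P 2 the F7 sum was 125 CPM at low P, still without overlap. The supplies overlapped in SF1 (301 CPM at low P, 332 CPM at high P), SM1 (603 CPM at low P, 514 CPM at high P), P024 (182 CPM at low P, 200 CPM at high P) and P415 (183 CPM at low P, 212 CPM at high P). In P024 the direction turned without the libraries numbered 3, with 172 CPM at low P and 159 CPM at high P (n = 2 each). In P415 each low P sum was below that of the same-numbered high P library, with 164, 221 and 165 CPM at low P, against 171, 272 and 193 CPM at high P.

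The remaining 175 members summed to 119 CPM at low P and 125 CPM at high P, a difference of -6.22 CPM or 7.53% of the whole. Their sum was lower at low P without overlap in F2 (99.9 CPM at low P, 155 CPM at high P) and F160 (130 CPM at low P, 151 CPM at high P). It was higher in SF1 (144 CPM at low P, 116 CPM at high P) and SM1 (124 CPM at low P, 97.7 CPM at high P). In SF1 the leading feature fell by 58.4 CPM while the other members gained 27.8 CPM, which left a difference of -30.6 CPM in the whole sum. After the leading feature, the largest falls averaged over genotypes were -0.866 CPM for ENSRNA049455651, -0.844 CPM for ENSRNA049477080 and -0.759 CPM for ENSRNA049458857. The largest rises were 1.27 CPM for ENSRNA049478576 (0.815 CPM without F142 low P 2), 0.56 CPM for ENSRNA049457359, 0.548 CPM for ENSRNA049479257 and 0.444 CPM for ENSRNA049479579.

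Across genotypes, an average response to low P was called for few members. Of the 176, 164 passed the filter on low counts in the joint model, and 14 of these were called, 8 higher and 6 lower (quasi-likelihood F-test of edgeR, with a threshold of 0.05 on the adjusted p). That is 8.54% of members tested, against 38.6% of all features tested, with 20.2% higher and 18.5% lower. Members had a median of 0.417 CPM, against 10.7 CPM for all features passing the same count rule. Changes at low counts are harder to call, and shares of calls were nowhere compared at equal level. A member that was not called may still have changed. Among the 8 rises is ENSRNA049459026, which met the count limit at low P only, so no test is given for it. The members' median log2 fold change was 0.04, against 0.00 over all 29705 features. Besides the leading feature, ENSRNA049461747 (94 bases) was called lower, at -0.41 ± 0.15 (edgeR adjusted p = 0.0225), and was not called without the libraries numbered 1 (adjusted p = 0.0839), without those numbered 3 (0.467) or without the P024 libraries numbered 3 (0.0706). The clearest rises were those of ENSRNA049457359 (89 bases, 0.67 ± 0.17, edgeR adjusted p = 0.00161) and ENSRNA049478576 (0.36 ± 0.09, edgeR adjusted p = 0.00127), which were called without the libraries of any 1 replicate number. ENSRNA049464979 (98 bases, 0.43 ± 0.16, edgeR adjusted p = 0.0254) and ENSRNA049478144 (1812 bases, 0.38 ± 0.12, edgeR adjusted p = 0.0119) were called higher too. Neither was called without the libraries numbered 1 (adjusted p = 0.112 for ENSRNA049464979 and 0.119 for ENSRNA049478144) or without those numbered 3 (0.22 for ENSRNA049464979 and 0.0784 for ENSRNA049478144), nor was ENSRNA049464979 without those numbered 2 (0.0559). Called members of at least 1800 bases were 4 of 31, all higher, while those under 400 bases were 9 of 105, with 3 higher and 6 lower. ENSRNA049459026 is among those 3.

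Low P raised many of the long features in SF1 and SM1. In SF1, 32 of 92 members tested were called, 24 higher and 8 lower (34.8% of members, against 54.7% of all features, with 28.1% higher and 26.6% lower). In SM1, 19 of 66 were called, 14 higher and 5 lower (28.8%, against 32.8% of all features, with 17.2% higher and 15.6% lower). Of members of at least 1800 bases, 12 of 20 tested rose in SF1 and 11 of 20 in SM1, and 0 fell; the median log2 fold change of the class was 1.02 in SF1 and 1.08 in SM1. Of those of 400 to under 1800 bases, 6 of 17 rose in SF1 and 3 of 10 in SM1. Among members under 400 bases, 6 of 55 rose and 8 fell in SF1, and 0 of 36 rose and 5 fell in SM1, falls no more frequent than over all features. Whether the length classes differ was not tested. Leaving out each library in turn, 13 of the 32 calls in SF1 were made every time and 3 of the 19 in SM1. The SF1 count was 17 without SF1 low P 1 and 19 without SF1 high P 3, and the SM1 count was 6 to 11 without any single library. Over all features, SF1 had 12107 calls without SF1 low P 1 and 12146 without SF1 high P 3, against 13836 with every library. SM1 had 4738 to 8293 calls over all features without any single library, against 8176.

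The class of at least 1800 bases summed to 44.4 to 67.2 CPM at low P and 28.9 to 32.0 CPM at high P in SF1, and to 48.1 to 54.2 CPM at low P and 19.7 to 30.2 CPM at high P in SM1. The P supplies did not overlap in either genotype. In F2 the same class was lower at low P, with 30.8 to 41.2 CPM against 58.9 to 63.0 CPM at high P, again with no overlap, and in the other 6 genotypes the supplies overlapped. Mitochondrial ribosomal RNA (the genes rrn18 and rrn26), taken as a measure of RNA without a poly(A) tail, summed to 247 to 325 CPM at low P and 317 to 398 CPM at high P in SF1. It summed to 523 to 742 CPM at low P and 409 to 618 CPM at high P in SM1, and to 241 to 319 CPM at low P and 339 to 481 CPM at high P in F2. The sum overlapped between supplies in SF1 and SM1, but its genes did not always. In SM1, rrn18 had 86.2 to 110 CPM at low P and 50.7 to 79.99 CPM at high P, higher without overlap as the long class was. In SF1, rrn26 had 197 to 261 CPM at low P and 266 to 337 CPM at high P, lower without overlap. In F2 the sum was lower at low P without overlap, as the long class was. The part of these RNAs in the results was not tested.

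**Figure D3:**
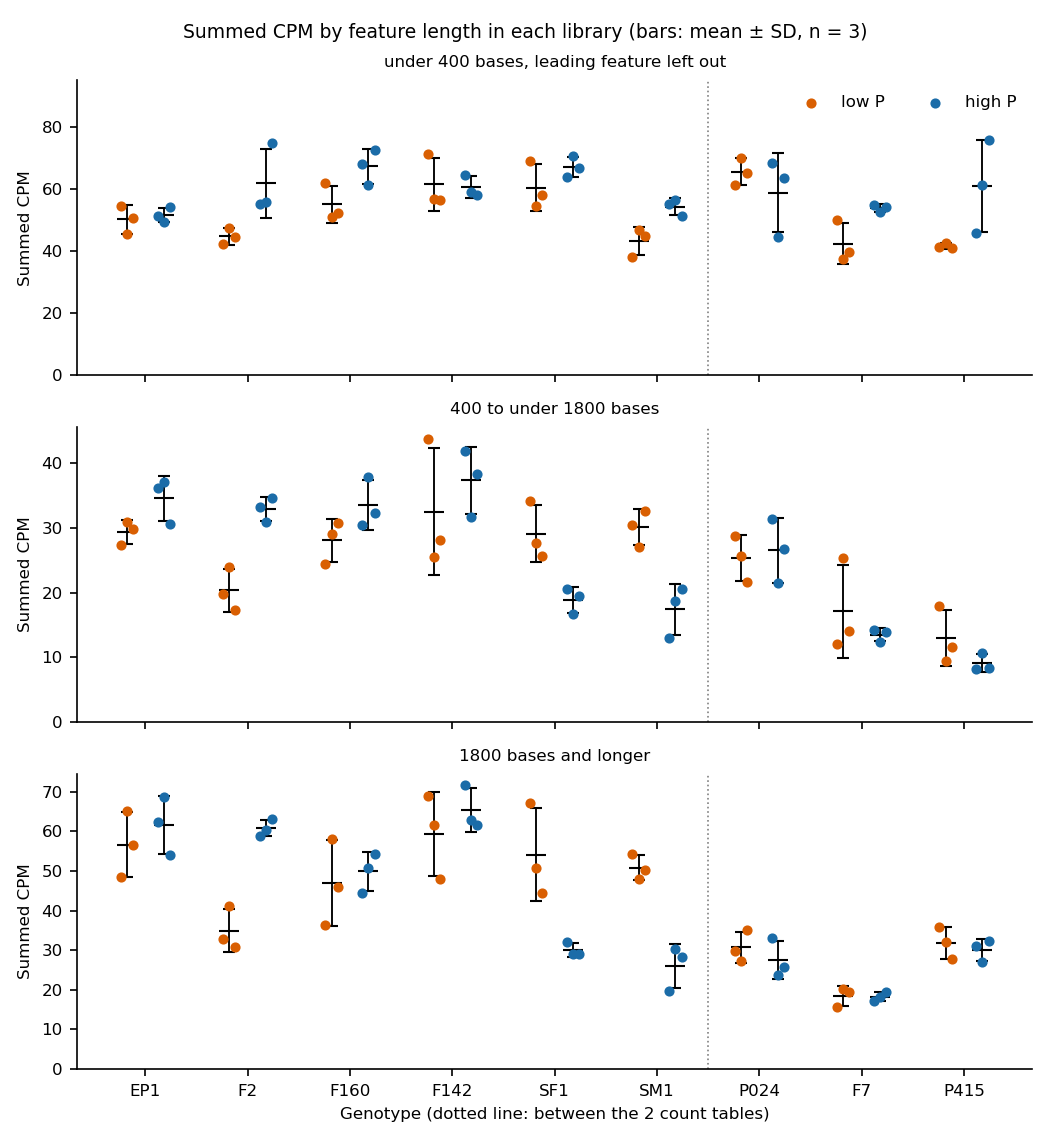
Summed CPM of members under 400 bases without the leading feature (top), of 400 to under 1800 bases (middle) and of at least 1800 bases (bottom) in each library, by genotype, with low P (orange) left of high P (blue); black marks are the mean ± SD of 3 libraries. In SF1 and SM1 the low P libraries of the lower 2 panels lie above the high P libraries, and in F2 below them.

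ENSRNA049478576 showed these differences most plainly. It had 10.7, 8.53 and 7.49 CPM at low P, against 5.12, 5.15 and 5.76 CPM at high P in SF1 (log2 fold change 0.85 ± 0.17, edgeR adjusted p = 0.00227). In SM1 it had 11.3, 8.29 and 10.5 CPM at low P, against 3.21, 4.38 and 4.26 CPM at high P (1.44 ± 0.19, edgeR adjusted p = 0.00231). In F2 it had 5.99, 6.59 and 4.43 CPM at low P, against 9.97, 10.7 and 10.5 CPM at high P (-0.82 ± 0.19, edgeR adjusted p = 0.0164). None of these 3 genotypes had overlapping libraries, and the direction in F2 was opposite. The call in F2 was lost without F2 low P 1 (adjusted p = 0.0537). The interaction passed the threshold for it (edgeR adjusted p = 0.000667), though not without the libraries numbered 1 (0.103).

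ENSRNA049478756, another feature of 1811 bases, had the smallest p of the interaction among members (edgeR adjusted p = 0.000197; 0.0657 without the libraries numbered 1). It had 5.98, 5.46 and 4.44 CPM at low P, against 3.15, 2.91 and 2.93 CPM at high P in SF1 (0.94 ± 0.18, edgeR adjusted p = 0.00221). In EP1 it had 4.06, 3.83 and 3.3 CPM at low P, against 6.73, 6.39 and 4.69 CPM at high P (-0.67 ± 0.19, edgeR adjusted p = 0.0198). Low P libraries were all above high P libraries in SF1 and all below them in EP1. The EP1 call ended without EP1 high P 2 (0.0671), low P 2 (0.0573) or low P 3 (0.073), and the SF1 call held without each library. In SM1 it was called at 0.84 ± 0.24 (edgeR adjusted p = 0.0339), and leaving out any library other than SM1 low P 1 ended that call (adjusted p up to 0.109).

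ENSRNA049478144 had 2.87, 3.16 and 2.06 CPM at low P, against 1.18, 1.19 and 0.944 CPM at high P in SF1 (1.41 ± 0.27, edgeR adjusted p = 0.00194). In SM1 it had 2.19, 2.55 and 1.91 CPM at low P, against 0.778, 1.1 and 0.579 CPM at high P (1.51 ± 0.32, edgeR adjusted p = 0.0129; 0.0503 without SM1 low P 2). All low P libraries exceeded all high P libraries in both. ENSRNA049479579 rose by 0.96 ± 0.23 in SF1 (edgeR adjusted p = 0.00749) and by 1.17 ± 0.23 in SM1 (edgeR adjusted p = 0.0102), and both calls held without each library. ENSRNA049478167, the third member by level, rose by 0.75 ± 0.19 in SF1 (edgeR adjusted p = 0.0084), where the call held without each library. It rose by 1.25 ± 0.29 in SM1 (edgeR adjusted p = 0.0177; 0.0539 without SM1 high P 2 and 0.0606 without SM1 low P 2). ENSRNA049478703 rose by 1.14 ± 0.30 in SF1 (edgeR adjusted p = 0.0111) and fell in F2, with 0.694, 0.747 and 0.679 CPM at low P, against 1.88, 1.85 and 1.6 CPM at high P. That F2 change was -1.28 ± 0.26 (edgeR adjusted p = 0.011; 0.0515 without F2 low P 1 and 0.0502 without F2 low P 3).

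**Figure D4:**
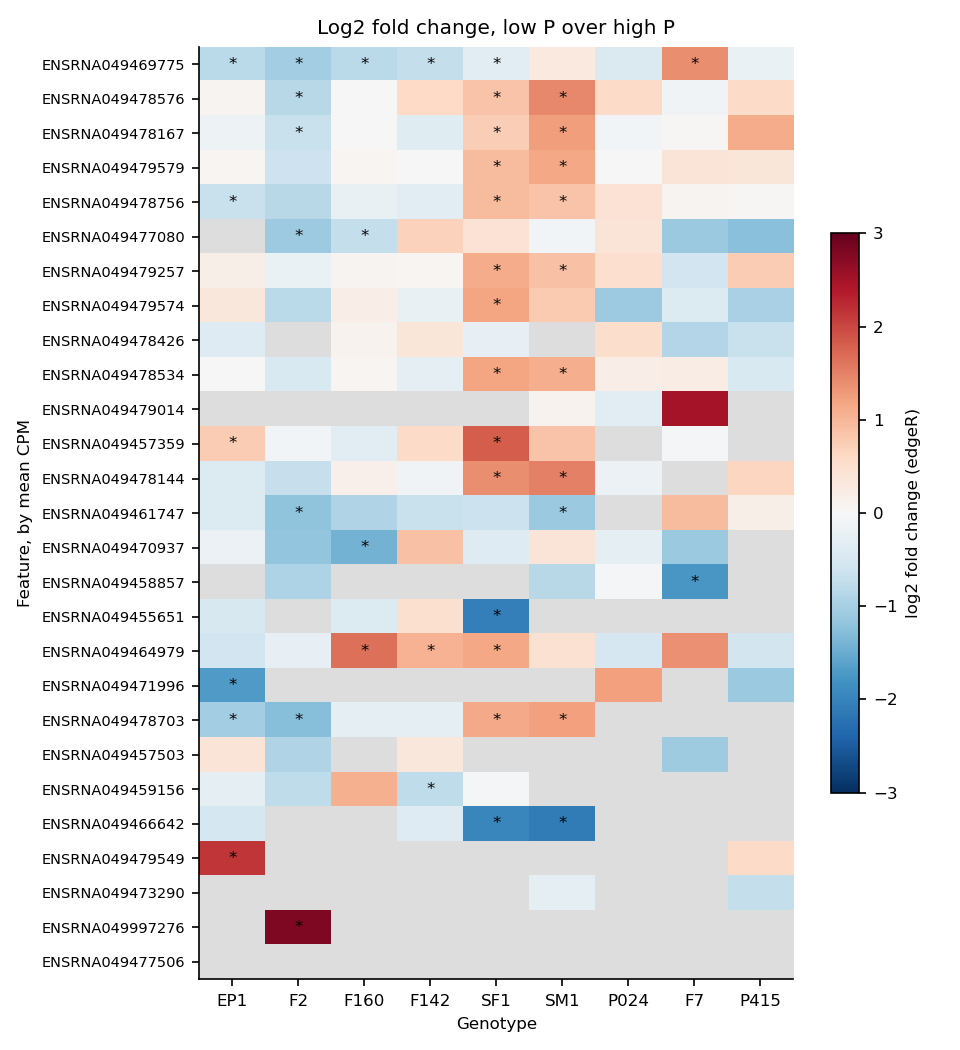
Log2 fold change of low P over high P (colour, edgeR, separate fit per genotype) for the 27 members named by the rule, ordered by mean CPM from top to bottom; asterisks mark an adjusted p under 0.05, and grey marks features not tested in a genotype or at 0 at 1 P supply, and ENSRNA049477506, chosen through low P libraries, carries no asterisk. ENSRNA049478576, ENSRNA049478167, ENSRNA049479579 and ENSRNA049478756 are red in SF1 and SM1 and blue in F2, and ENSRNA049469775 is blue in EP1, F2, F160, F142 and SF1 and red in F7.

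The falls in SF1 lay among short features. ENSRNA049455651, 185 bases long, had 1.39, 1.4 and 1.97 CPM at low P, against 6.58, 7.25 and 7.51 CPM at high P in SF1 (log2 fold change -2.04 ± 0.19, edgeR adjusted p = 3.64e-05). ENSRNA049466642, of 91 bases, had 0.278, 0.406 and 0.583 CPM at low P, against 1.24, 2 and 2.12 CPM at high P (-1.95 ± 0.37, edgeR adjusted p = 0.00201). Neither overlapped between supplies, and both calls held without each library. ENSRNA049466642 also fell in SM1, by 2.10 on the log2 scale (SE 0.50, edgeR adjusted p = 0.0197), a call lost without SM1 high P 2 (0.0608) or low P 3 (0.0631) and with a block for replicate number (0.053). ENSRNA049457359 rose in SF1, with 2.69, 1.94 and 2.2 CPM at low P, against 0.675, 0.906 and 0.519 CPM at high P (1.81 ± 0.29, edgeR adjusted p = 0.00083), with no overlap and a call that held without each library. ENSRNA049464979 rose by 1.16 ± 0.31 in SF1 (edgeR adjusted p = 0.0117), also without each library. ENSRNA049461747 fell by 1.12 in SM1 (SE 0.27, edgeR adjusted p = 0.0207), a call lost without SM1 high P 2 (0.0518), low P 2 (0.0636) or low P 3 (0.0574). Of other long features, ENSRNA049479257, ENSRNA049479574 and ENSRNA049478534 were called higher in SF1 at log2 fold changes of 1.12 to 1.18, each call ending without at least 1 library, among them SF1 high P 2 for ENSRNA049479257 (0.0525), SF1 low P 1 for ENSRNA049479574 (0.105) and SF1 low P 1 for ENSRNA049478534 (0.156).

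In F2, 12 of 75 members tested were called, 1 higher and 11 lower (16.0% of members, against 30.2% of all features). Of all features, 16.0% were called higher and 14.2% lower, so the members' share of falls was near that background. The members' median log2 fold change was -0.68, against -0.02 over all features. Of members of at least 1800 bases, 4 of 26 fell, and of those under 400 bases 4 of 33. With a block for replicate number, 6 members were called, 1 higher and 5 lower (6959 of 25065 features), and without F2 low P 1 the count was 3 (4570 of 25430 features). Same-numbered low P and high P libraries of F2 correlated at 0.0981 to 0.128, and differently numbered ones at -0.119 to -0.00196. Whether F2 libraries of 1 number share more than the number is not known. The 1 rise was ENSRNA049997276 (104 bases), with 1.26, 0.747 and 1.13 CPM at low P, against 0.166, 0.0998 and 0.192 CPM at high P (2.80 ± 0.43, edgeR adjusted p = 0.00405). All low P libraries lay above all high P libraries, and the call held without each library. ENSRNA049477080 (304 bases) fell in F2, with 2, 2.81 and 2.31 CPM at low P, against 4.15, 4.39 and 7.31 CPM at high P (-1.10 ± 0.29, edgeR adjusted p = 0.029). It fell in F160 as well, with 4.26, 4.65 and 4.22 CPM at low P, against 6.9, 7.16 and 9.02 CPM at high P (-0.72 ± 0.18, edgeR adjusted p = 0.0273). Its libraries did not overlap in either genotype, but omission of F2 low P 1 (0.104) or of F160 low P 1 (0.102) ended the call, as did 3 other omissions in each.

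EP1 had 7 calls among 79 members tested, 2 higher and 5 lower (8.86% of members, against 42.7% of all features, with 21.1% higher and 21.6% lower). ENSRNA049479549 (156 bases) rose, with 1.29, 1.32 and 1.2 CPM at low P, against 0.383, 0.161 and 0.309 CPM at high P (2.14 ± 0.37, edgeR adjusted p = 0.00186). ENSRNA049471996 (200 bases) fell, with 0.743, 0.87 and 1.07 CPM at low P, against 2.63, 2.79 and 3.4 CPM at high P (-1.71 ± 0.26, edgeR adjusted p = 0.000915). Neither overlapped, and both calls held without each library. In F160, 6 of 82 members were called, 1 higher and 5 lower (7.32%, against 22.7% of all features, with 13.2% higher and 9.43% lower). The rise was ENSRNA049464979, with 1.09, 0.862 and 1.15 CPM at low P, against 0.456, 0.12 and 0.445 CPM at high P (1.65 ± 0.45, edgeR adjusted p = 0.0378), a call that ended without any library other than F160 low P 2 (adjusted p up to 0.107). ENSRNA049470937 (306 bases) had the largest fall there, -1.41 ± 0.32 (edgeR adjusted p = 0.0191; 0.064 without F160 high P 2 and 0.0641 without F160 high P 3). In F142, 6 of 91 were called, 2 higher and 4 lower (6.59%, against 50.0% of all features, with 25.7% higher and 24.3% lower). With a block for replicate number, 3 members were called in F142, and 10154 of 25238 features of any kind. The largest fall in F142 among members of at least 1 CPM was ENSRNA049459156 (107 bases), at -0.77 ± 0.27 (edgeR adjusted p = 0.0436), a call not made without any 1 of the 6 libraries (adjusted p of 0.0574 to 0.121).

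ENSRNA049477506, of 113 bases, was read at low P and not at high P. It had 218 counts in 17 of 27 low P libraries and 0 counts in each of the 27 high P libraries. The low P counts were spread over 7 genotypes. It was the only member at 0 in every library of 1 P supply. The same count was not made over all features, so this shows no trait particular to the members. ENSRNA049477506 had 1.9, 0.722 and 1.44 CPM in SF1 at low P, 0.804, 0.733 and 1.56 CPM in F142 and 0.739, 0.345 and 0.504 CPM in F160. Taking 3 counts over the 3 high P libraries as the limit, its low P level was at least 27.0-fold higher in SF1, at least 19.9-fold higher in F142 and at least 9.58-fold higher in F160. Lower values were read in F2 (0.217, 0.22 and 0.0905 CPM at low P) and EP1 (0.0991, 0.174 and 0 CPM at low P). F7 and P415 had 0 counts of it at low P. All 8 libraries with 10 counts or more, which chose it as a member, were at low P. A feature chosen through 1 supply has to differ between supplies, so no test is given for it, although it is among the calls counted in SF1 and F142; 5 members had counts of 10 or more at low P only, 2 at high P only and 169 at both.

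In the second count table few members were called, and in P024 and P415 hardly any feature of any kind. In F7, 2 of 38 tested were called, 1 higher and 1 lower (5.26%, against 22.7% of all features, with 10.8% higher and 11.9% lower). The fall was ENSRNA049458857 (201 bases), with 1.21, 1.33 and 0.857 CPM at low P, against 2.82, 2.53 and 6.12 CPM at high P (-1.75 ± 0.49, edgeR adjusted p = 0.0397). The call ended without any F7 library other than F7 low P 2 (adjusted p up to 0.155) and with a block for replicate number (0.11). Without both F7 low P 2 and F7 high P 1, 4 of 42 members were called, against 7944 of 24578 features of any kind. In P024, 0 of 43 members were called, against 0% of all features; 0 members had an unadjusted p under 0.05 by edgeR, 2 by DESeq2, and 0 were called by DESeq2 or limma-voom. In P415, 0 of 50 were called, against 0.184% of all features; 3 had an unadjusted p under 0.05 by edgeR, 5 by DESeq2, and 0 were called by DESeq2 or limma-voom.

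Responses differed between genotypes for 25 of 164 members (edgeR interaction test over 9 genotypes, 15.2% of members, against 42.2% of all features), of which 10 had at least 1800 bases. After ENSRNA049478756, ENSRNA049469775 and ENSRNA049478576, the next smallest was ENSRNA049478144 (edgeR adjusted p = 0.00158; 0.12 without the libraries numbered 1). The count of members was 2 without the libraries numbered 1, 10 without those numbered 2 and 10 without those numbered 3. Over all features the count fell as well, from 12521 of 29705 to 4270 of 29761, 7263 of 29850 and 9407 of 29831 in the same order. Without the P024 libraries numbered 3 the count of members was 37 (17485 of 30173 features), and without F7 low P 2 it was 29 (13460 of 30218 features). In the separate fits by genotype, 53 of 144 members tested were called in at least 1 genotype (36.8%, against 77.8% of all features). Of the 144, 24 were higher only (16.7%, against 29.2% of all features), 21 lower only (14.6%, against 32.4%), and 8 higher in at least 1 genotype and lower in another (5.56%, against 16.1%). Of 98 members tested in at least 3 genotypes, 6 were called in at least 3 (6.12%, against 43.2% of all features). Of 51 members tested in both SF1 and SM1, 9 were higher in both (17.6%, against 14.2% of all features, near that background). Since the genotypes span 2 count tables, the interaction test carries any difference between the tables in the size of the response.

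The number of members with more than a few reads differed between genotypes. At least 10 counts in at least 3 of 6 libraries were reached by 92 members in F142 and in SF1, 85 in F160, 84 in EP1, 77 in F2, 70 in SM1, 51 in P415, 50 in P024 and 43 in F7, the last 3 from the second count table. Detection at all gave another order, since members at 0 in all 6 libraries numbered 10 in F7 and 11 in F160, against 18 in SM1 and in P024. Of the 176, 17 reached this in all 9 genotypes, 31 in 1 genotype and 28 in 0. At high P, 98 of 164 members differed between the 6 genotypes of the first table (59.8%, against 64.3% of all features) and 74 of 164 between the 3 genotypes of the second (45.1%, against 56.5% of all features; 81 of 172 without the P024 libraries numbered 3). All reads were aligned to the B73 genome, whatever the genotype, so that a missing or diverged locus and an unexpressed one cannot be told apart. Of 75 members with at least 1 CPM in a genotype of the first table, 12 were at 0 in another genotype, and so were 7 of 41 in the second table. The same count was not made over all features, so these numbers show no trait particular to the members.

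Several features were at or near 0 in some genotypes and read in others at high P. ENSRNA049478426 (163 bases), with the smallest p in the first table (edgeR adjusted p = 1.08e-14), had 4.81 to 6.76 CPM in F142, 3.92 to 4.54 CPM in EP1, 1.12 to 1.56 CPM in F160 and 0.755 to 0.844 CPM in SF1 at high P. It had at most 0.0554 CPM in F2 and 0.0392 CPM in SM1. ENSRNA049458857 (edgeR adjusted p = 1.07e-12) had 4.48 to 7.38 CPM in F2 and 2.38 to 2.7 CPM in SM1 at high P, and 0 CPM in every EP1, F142 and SF1 library at high P. ENSRNA049471996 was at 0 in all libraries of F2, F160, F142, SF1 and SM1 at both supplies, against 2.63 to 3.4 CPM in EP1 at high P (edgeR adjusted p = 1.38e-07). ENSRNA049473290 (95 bases) had 1.16 to 1.33 CPM in SM1 and was at 0 in the other 5 genotypes of the table at high P (edgeR adjusted p = 1.66e-07). These 4 had the smallest p-values in the first table among members with at least 1 CPM.

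In the second table, ENSRNA049479014 (480 bases) had 13.3, 9.98 and 18.6 CPM in P024 at high P, 1.93, 0.788 and 0.243 CPM in F7, and at most 0.217 CPM in P415 (edgeR adjusted p = 2.24e-09). At low P it had 14.4 CPM in the library labelled F7 low P 2, while F7 low P 1 and F7 low P 3 had 1.75 and 1.09 CPM, and it had 9.51 to 12.0 CPM in P024. ENSRNA049478534 (1802 bases) had 8.37 to 10.2 CPM in P415 at high P, 1.23 to 3.6 CPM in P024 and 0.844 to 1.39 CPM in F7 (edgeR adjusted p = 3.81e-09). ENSRNA049457503 (62 bases) had 2.85 to 4.67 CPM in F7 at high P, against 0.174 to 0.234 CPM in P024 and 0.053 to 0.163 CPM in P415 (edgeR adjusted p = 3.23e-08). ENSRNA049457359 had 1.93 to 2.61 CPM in F7, 0.234 to 0.522 CPM in P024 and at most 0.159 CPM in P415 (edgeR adjusted p = 2.81e-08). Each of these 4 features was highest in 1 genotype, whose high P libraries did not overlap with those of the other two. ENSRNA049478426 passed the threshold in the second table at an edgeR adjusted p of 0.0362, and ENSRNA049458857 at 2.86e-07, with 2.53 to 6.12 CPM in F7, 1.17 to 3.31 CPM in P024 and at most 0.053 CPM in P415.

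**Figure D5:**
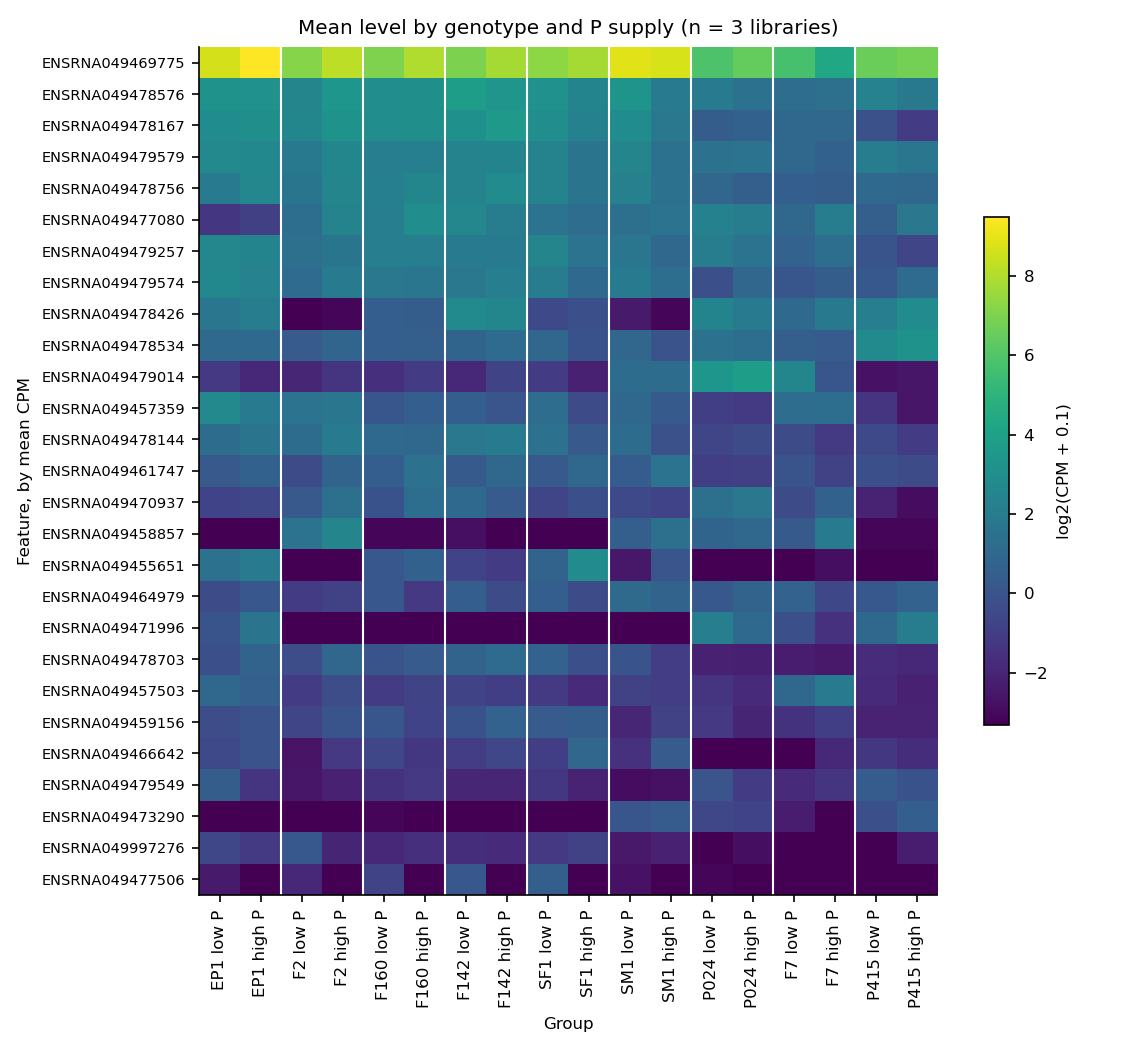
Mean level of the 27 named members in the 18 groups (colour, log2 of CPM + 0.1, n = 3 libraries), ordered by mean CPM, with low P left of high P in each genotype. ENSRNA049477506, in the bottom row, is above the darkest shade only in low P columns, and ENSRNA049458857, ENSRNA049471996 and ENSRNA049473290 are dark in most genotypes.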

How the data were processed

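Root RNA of 9 maize genotypes at low and high P was sequenced from NEBNext Ultra libraries, per the labels' protocols; whether poly(A) RNA was selected is not stated there. The tools fastp, HISAT2 and HTSeq and the genome build B73 RefGen_v4 are named in the submitters' processing notes. Their versions, and whether counting used strand, are not stated there. The authors deposited whole-number read counts per feature in 2 tables and FPKM values in 2 more. The deposited feature lengths were used for length classes. Each of 1583165 deposited FPKM values above 0 equalled its count scaled by length and library total within 0.001, so FPKM served only to give a level per length. CPM was computed from the library total of counts over all features.

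The tables were joined by ID. edgeR 4.0.16 (limma 3.58.1, R 4.3.3) was run on the deposited counts with TMM scaling, filterByExpr and robust quasi-likelihood F-tests, with Benjamini-Hochberg adjustment over all features tested and a threshold of 0.05. Low P was compared with high P in a fit of the 6 libraries of each genotype. A joint fit of 54 libraries with 18 group means gave the average response, the interaction and the genotype differences at high P within a count table. DESeq2 1.42.0, limma-voom, other scaling, no filter, left-out libraries and a replicate block were alternatives. The edgeR fit within EP1 and the joint edgeR fit for the average, the interaction and the first table at high P were first tested on simulated data. The fits of the other genotypes, the second table at high P and the alternatives were not. With 3 libraries a side an exact permutation test cannot go below 0.1. No replicate pair of the 54 agreed within sampling noise (lowest chi-square per degree of freedom 7.02).

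Replicate numbers occur in every group. Same-numbered low P and high P libraries deviated together, with every correlation over 0.1, in P024 (0.523 to 0.837) and P415 (0.178 to 0.38). The other 7 genotypes did not meet this limit. In F2 (0.0981 to 0.128) and F160 (0.0705 to 0.257) every same-numbered correlation was positive, but not every one was over 0.1. The pairing in P024 and P415 rests on these correlations alone, since the labels name no shared batch, and it is weak: P024 low P 2 correlated more with high P 1 (0.686) than with high P 2, and P415 low P 3 more with high P 1 (0.237) than with high P 3. In P024 the libraries numbered 3 stood against the rest. The members, length classes and tests were chosen with earlier results of these data known. Members were named by a rule: the 8 with the largest mean CPM; the 4 largest falls and rises in CPM; the 4 largest called average changes in each direction; the 4 smallest p-values of the interaction and of each table at high P; and per genotype the largest called change in each direction, all with at least 1 CPM in a group compared. Other members are given by count.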

Additional observations from a re-analysis of the deposited data

Results flagged for a closer look

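The low P response differed between the 9 genotypes, by the interaction test of the joint edgeR model, for 13 of the members named by the rule. The adjusted p of the interaction was 0.000197 for ENSRNA049478756, 0.000293 for ENSRNA049469775, 0.000667 for ENSRNA049478576 and 0.00158 for ENSRNA049478144. It was 0.0031 for ENSRNA049479579, 0.0059 for ENSRNA049478703, 0.00666 for ENSRNA049478167 and 0.00846 for ENSRNA049466642. It was 0.0103 for ENSRNA049464979, 0.0183 for ENSRNA049997276, 0.0282 for ENSRNA049478534, 0.0354 for ENSRNA049479014 and 0.0469 for ENSRNA049470937. For ENSRNA049479014 it was 0.152 without the library labelled F7 low P 2. Without the libraries numbered 1, none of these 13 passed the threshold, with adjusted p-values of 0.0657 to 0.504. Over all features, 4270 of 29761 passed it without these libraries, against 12521 of 29705 with every library.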

How the results depend on the processing

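The summed difference of -82.7 CPM became -6.22 CPM without the leading member. It stayed between -87.0 and -77.8 CPM without the libraries of any 1 replicate number, and was -60.3 CPM with TMM library sizes, -83.2 CPM over every ENSRNA feature, -82.0 CPM over the 140 features with 10 counts in 6 libraries and -83.5 CPM without F7 low P 2. Without the P024 libraries numbered 3, an alternative chosen after seeing the data, it was -79.2 CPM. Leaving out each of the 54 libraries in turn, also chosen after seeing the data, gave -86.3 to -78.2 CPM. The average response, with 14 members called, had 7 to 10 without 1 replicate number, 31 when only the first count table was fitted and 0 when only the second was. Over all features, 11479 were called with every library and 7703 to 9891 without 1 replicate number. In the first table alone 17108 of 28834 features were called, and in the second alone 1136 of 26975. In the second table the log2 fold change turned positive for ENSRNA049469775 (0.26) and ENSRNA049461747 (0.38); the cause was not tested. The interaction, with 25 members called, had 40 by limma-voom, 45 by DESeq2, 43 in the first table alone, 0 in the second alone and 2 to 10 without 1 replicate number. Over all features the interaction had 12521 calls, 13571 by limma-voom and 15557 by DESeq2. It had 16762 in the first table alone, 727 in the second alone and 4270 to 9407 without 1 replicate number. Genotype differences at high P were called for 63 to 70 members of the first table, against 98 with every library, and for 42 to 54 of the second, against 74, when 1 replicate number was left out, so that fewer samples were fitted. Over all features these counts were 11918 to 16109 in the first table, against 19096, and 11934 to 14470 in the second, against 16797.

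Leaving out single libraries gave 3 to 11 calls in F2 (12 with every library), 2 to 6 in F160 (6), 17 to 31 in SF1 (32), 6 to 11 in SM1 (19) and 1 to 3 in F7 (2). Over all features this gave 4570 to 7922 calls in F2 (7577 with every library) and 3255 to 5816 in F160 (5681). The ranges were 12107 to 13013 in SF1 (13836), 4738 to 8293 in SM1 (8176) and 2496 to 8394 in F7 (5565). With a replicate block, 6 members were called in F2, 3 in F142, 6 in SM1 and 1 in F7, where not every same-numbered correlation was above 0.1. Over all features the block gave 6959 calls in F2, 10154 in F142, 5579 in SM1 and 4053 in F7. The block left 0 calls in P024 and P415, whose same-numbered libraries all correlated above 0.1, and gave 16 for the average and 25 for the interaction. Over all features the average had 12917 calls with the block and the interaction 15464. DESeq2 called 3 members in F142 and 5 in F7, against 12373 and 7600 features of any kind. F7 had 1 call without the filter, 1 by limma-voom and 4 without F7 low P 2 and F7 high P 1. Over all features these F7 fits had 4977, 5521 and 7944 calls. In all, 114 of 158 recomputed counts and sums stayed within 1.5 times or 1 SD, among them the P024 and P415 counts, which were 0 in every fit. Of 1218 recomputed values of named members, 1003 kept the call, 213 lost it without a reversal, and 2 reversed. The tests of the interaction and of genotypes at high P have no direction, so their values could not reverse. Depth limits what can be said of features near 0.192 CPM, the level of 3 counts in the shallowest library.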

Other observations

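Without the leading feature, the members under 400 bases summed to less at low P in 4 genotypes with no overlap of the libraries. The sums were 42.1 to 47.4 CPM at low P and 55.0 to 74.6 CPM at high P in F2, and 38.1 to 46.9 CPM at low P and 51.3 to 56.5 CPM at high P in SM1. They were 37.5 to 50.0 CPM at low P and 52.4 to 54.8 CPM at high P in F7, and 40.9 to 42.7 CPM at low P and 45.9 to 75.6 CPM at high P in P415. In the other 5 genotypes the P supplies overlapped. No test was made of these sums.

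The 6 called members of the average response that the naming rule leaves out lay under 1 CPM in every group and are given here after their values were seen. ENSRNA049459833 (102 bases) had the largest fall on the log2 scale among the 14 called members, with a mean over genotypes of 0.125 CPM at low P and 0.299 CPM at high P, and lower means at low P in 8 of 9 genotypes (log2 fold change -1.83 ± 0.35, edgeR adjusted p = 5.32e-05). ENSRNA049461634 (95 bases) averaged 0.216 CPM at low P and 0.413 CPM at high P and was lower in 7 of 9 genotypes (-0.88 ± 0.23, edgeR adjusted p = 0.0017). ENSRNA049458467 (87 bases) averaged 0.30 CPM at low P and 0.48 CPM at high P and was lower in 8 of 9 genotypes (-0.58 ± 0.22, edgeR adjusted p = 0.0342). ENSRNA049471008 (102 bases) averaged 0.108 CPM at low P and 0.189 CPM at high P (-0.98 ± 0.38, edgeR adjusted p = 0.0373). ENSRNA049459026 (86 bases) averaged 0.358 CPM at low P and 0.156 CPM at high P, with higher means at low P in 7 of 9 genotypes. It met the count limit in 8 low P libraries and 0 high P libraries, so no test is given for it. ENSRNA049479884 (1422 bases) averaged 0.335 CPM at low P and 0.312 CPM at high P (0.47 ± 0.19, edgeR adjusted p = 0.0406), higher in 5 of 9 genotypes. The lowest of these means over genotypes lie near 0.104 CPM, the limit that a count of 0 allows in the deepest library. Means of single low P groups went below it, to 0.0154 CPM for ENSRNA049459833, 0.029 CPM for ENSRNA049471008 and 0.0519 CPM for ENSRNA049459026. At high P the lowest group mean of ENSRNA049479884 was 0.0538 CPM.

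ENSRNA049469775, ENSRNA049478576, ENSRNA049478167, ENSRNA049478756, ENSRNA049464979 and ENSRNA049478703 were the 6 members called in at least 3 genotypes. All but ENSRNA049464979 had calls in both directions.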
